A study of Caenorhabditis elegans with 2 samples.

Results

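The small nuclear RNA (snRNA) and spliced-leader RNA genes of Caenorhabditis elegans were examined in a genome-wide map of where the tagged transcription factor HLH-15 was recovered on DNA. The set holds every gene that the Ensembl annotation of the WBcel235 assembly (release 115) classes as an snRNA, 129 of the 46890 annotated genes of the nuclear chromosomes. The 30 spliced-leader genes, named sls-, all carry that class, so no gene was added by name. Each gene was given the peak of highest signal whose summit lay within 250 bp of it, and genes without such a peak stayed in the counts.

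The map is chromatin immunoprecipitation sequencing (ChIP-seq) of whole hermaphrodite late embryos, collected 3 hours after the population had been synchronized by bleaching of eggs. All worms belonged to strain OP566, which carries the mutation unc-119(tm4063) on chromosome III and the transgene wgIs566, from which HLH-15 is made with GFP and FLAG at its C-terminus. There was 1 group with 2 biological replicates and no contrasting genotype, stage or treatment, and the cells of the embryo in which the fusion protein was present are not known from the labels. The labels describe the antibody as anti-GFP in the experiment's description and as hlh-15 in the antibody field.

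Pre-messenger RNA is spliced by the spliceosome, whose U1, U2, U4, U5 and U6 particles are each built around an snRNA. In nematodes a further set of small RNAs, the spliced leaders SL1 and SL2, donate their first bases to the 5′ end of many messenger RNAs by trans-splicing. SL2 is used mainly for downstream genes of operons, and the SmY RNAs are nematode RNAs associated with the trans-splicing machinery. RNA polymerase II transcribes most snRNA and spliced-leader genes, whereas RNA polymerase III transcribes U6. In vertebrates a TATA box in the short upstream region directs U6 genes to RNA polymerase III. HLH-15 belongs to the basic helix-loop-helix (bHLH) family, whose members bind E-boxes, the letters CANNTG.

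The annotation gave 18 genes the name of an SL2-type leader, 12 the name of SL1 and 10 the name of SmY, and it named no U type for the remainder. Those were therefore grouped by at least 80% identity of the transcribed sequence and called by the commonest length. The 102-base family had 23 genes. The 187-base family had 19 genes, of which 18 held GTAGTAT, letters of the branch-site pairing region of U2. The 165-base family had 13 genes, of which 12 held ACTTACCT, letters with which U1 pairs to the 5′ splice site, and it included sup-6 and sup-39, U1 genes known from suppressors of splice-site mutations. The 122-base family had 12 genes, of which 11 held GCCTTTTAC, letters of the U5 loop. A 144-base family had 5 genes, and 17 genes fell in no family. Of all 129 genes, 72 held ATTTTTG, a form of the Sm-binding site, and none of those was in the 102-base or the SL1 family. ATTTTTG or ATTTTGG was held by 89 genes, among them all 12 SL1 genes and none of the 102-base family. The families are repetitive: the 129 genes had 94 distinct transcribed sequences, and 48 genes held no word of 50 bases that occurred once in the genome.

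The sequences below are those around which the peaks divided between near-identical copies, read from the RefSeq genome of the same assembly. In the 102-base family, 14 genes had identical transcribed sequences. First are the 100 bases upstream of 4 of these 14 genes, ending at the base before the gene, with TATATAA and GAACCC in capitals. W05B2.8 (chrIII:10989579-10989678, plus strand), R07E5.16 (chrIII:4414085-4414184, plus strand) and C28A5.7 (chrIII:4426956-4427055, minus strand) each had a peak in the IDR list, the authors' stringent list, named for the irreproducible discovery rate. K09C6.12 (chrV:858991-859090, plus strand), chosen after its values were seen because its upstream bases were 85% identical to those of C28A5.7, had no peak in any list.
W05B2.8: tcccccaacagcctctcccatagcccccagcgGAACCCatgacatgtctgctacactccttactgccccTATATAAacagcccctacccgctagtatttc
R07E5.16: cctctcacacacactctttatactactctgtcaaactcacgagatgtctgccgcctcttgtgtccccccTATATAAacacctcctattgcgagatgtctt
C28A5.7: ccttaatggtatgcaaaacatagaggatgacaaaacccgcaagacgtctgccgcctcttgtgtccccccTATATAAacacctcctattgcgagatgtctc
K09C6.12: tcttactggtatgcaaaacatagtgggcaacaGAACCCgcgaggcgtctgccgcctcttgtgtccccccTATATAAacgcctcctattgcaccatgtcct

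Of the SL2-type genes, sls-2.1 (chrII:5844865-5844974, plus strand) and sls-2.2 (chrII:5543598-5543707, plus strand) had an IDR peak. The gene sls-2.3 (chrII:5544164-5544273, minus strand), chosen after its values were seen because its transcribed sequence was 97.3% identical to that of sls-2.2, had none. Their transcribed sequences are shown with the leader, the first 22 bases, in capitals.
sls-2.1: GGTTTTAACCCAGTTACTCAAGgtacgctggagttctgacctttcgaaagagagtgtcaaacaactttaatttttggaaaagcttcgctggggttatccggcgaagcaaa
sls-2.2: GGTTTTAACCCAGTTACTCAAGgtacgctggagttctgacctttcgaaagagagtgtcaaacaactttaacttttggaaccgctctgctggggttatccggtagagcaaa
sls-2.3: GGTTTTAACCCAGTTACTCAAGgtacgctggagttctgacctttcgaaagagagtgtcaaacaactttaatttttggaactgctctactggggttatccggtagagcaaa
The 100 bases upstream of each follow (chrII:5844765-5844864, plus strand, chrII:5543498-5543597, plus strand, and chrII:5544274-5544373, minus strand), with TCGCTTGC in capitals.
sls-2.1: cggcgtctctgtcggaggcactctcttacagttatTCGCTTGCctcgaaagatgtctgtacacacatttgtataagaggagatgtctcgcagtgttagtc
sls-2.2: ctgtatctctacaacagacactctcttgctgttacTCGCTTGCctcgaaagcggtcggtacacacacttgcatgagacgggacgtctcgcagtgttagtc
sls-2.3: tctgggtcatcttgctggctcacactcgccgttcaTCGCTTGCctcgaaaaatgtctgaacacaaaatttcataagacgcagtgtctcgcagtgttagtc

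HLH-15 peaks of the stringent IDR list were found at 7 of the 129 genes, all of them in the SL2 family (4 of 18) or the 102-base family (3 of 23) and none among the 88 genes of the other families. At 1 of the 7, sls-2.9, the summit lay inside a neighbouring tRNA gene. That list holds the 407 pooled peaks that passed a cut-off set by how alike peaks rank between repeats. It is the authors' optimal set, and whether the biological replicates or splits of the pooled reads set its threshold was not examined here. The 7 genes were 5.43% of the set (95% Wilson interval 2.65% to 10.8%, for counting error only, in a set whose copies share sequence), against 1.43% of all annotated genes. At the latter share few or none of the 88 genes of the other families would be called, so nothing is read from their zero. The much longer pooled list of 17654 peaks and background regions reached 34 genes, 26.4% of the set, against 23.4% of all annotated genes. Counted by the gene, the share in the pooled list was thus near the background (95% Wilson interval 19.5% to 34.6%), and that in the IDR list above it. Long genes meet more peaks, so this background depends on gene length. By the 5′ end alone the pooled share of the set was again 26.4%, with the same interval. Of all annotated genes 5188 of 46890 then had a pooled peak, a share below that interval. The pooled share was thus above the background by the 5′ end. No test was made, since the series has a single group and the deposited lists carry no read counts.

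Replicate 1 had a peak at 25 of the 129 genes (19.4%), against 26.6% of all annotated genes, and replicate 2 at 41 (31.8%), against 34.2%. Both replicates had one at 19 genes (14.7%), against 17.1% of all annotated genes. Counted by the gene, these 3 shares were below the background. Their 95% Wilson intervals held it (13.5% to 27.0% for replicate 1 and 9.64% to 21.9% for both). Counted by the 5′ end, all 3 lay above the background. The shares were then 17.1% against 12.5% for replicate 1, 30.2% against 15.9% for replicate 2 and 13.2% against 4.88% for both. The intervals held the background for replicate 1 (11.5% to 24.5%) but not for replicate 2 (23.0% to 38.6%) or both (8.39% to 20.1%). Of the 129 genes, 6 had a peak in replicate 1 alone, 22 in replicate 2 alone and 80 in no list. Among the 407 strongest peaks of each replicate, 4 of the 129 genes had one in both, against 0.859% of all annotated genes. All 7 genes of the IDR list had one of the 407 strongest peaks of replicate 1, whereas 4 of them had one in replicate 2, where sls-2.2, C28A5.7 and R07E5.16 ranked 1248, 635 and 415. The lists differ in length and in the scale of their signal, the authors' column of peak strength, whose unit is not stated, so signals are compared only within a list.

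**Figure D1:**
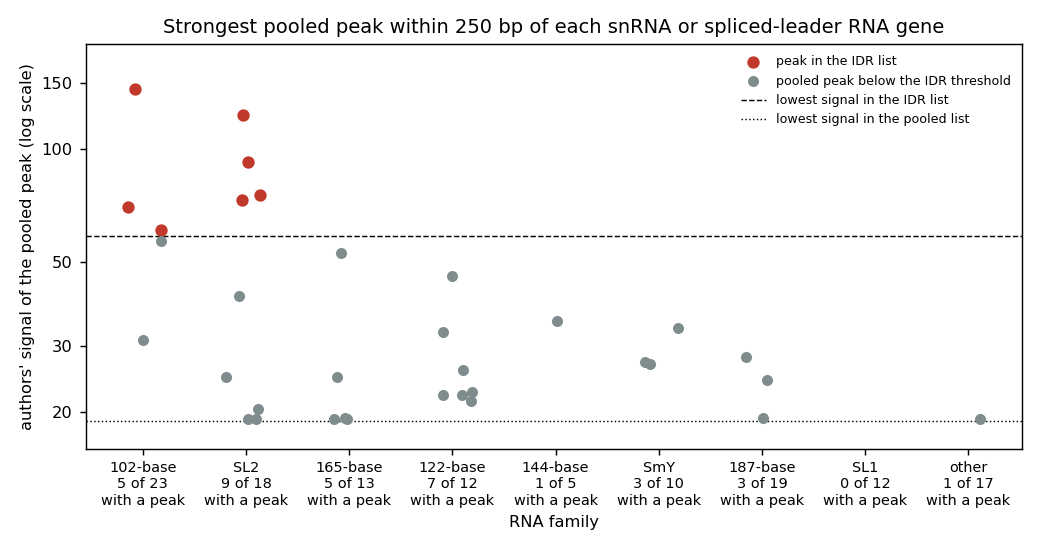
The authors' signal of the strongest pooled peak within 250 bp of each gene, on a log axis, by RNA family; each point is a gene with a pooled peak, and the line under each family gives how many of its genes had one. Points in red, at 61.1 to 145, are the 7 genes with a peak in the IDR list, and they stand in the SL2 and 102-base columns.

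The 102-base family held the strongest peak of the whole set, at W05B2.8. It had a signal of 145 in the pooled list (rank 41 of 17654), 92.1 in replicate 1 (rank 44 of 21250) and 51.4 in replicate 2 (rank 61 of 30000). W05B2.8 was therefore among the strongest peaks of the genome in each list. C28A5.7 had a pooled signal of 70.2 (rank 278), with 45.3 in replicate 1 (rank 280) and 22.0 in replicate 2 (rank 635). R07E5.16 had a pooled signal of 61.1 (rank 381), with 40.6 in replicate 1 (rank 352) and 25.2 in replicate 2 (rank 415). The last lay close to the edge of the IDR list, whose lowest signal was 58.9, and F54D8.7, also on chromosome III, lay just outside it. F54D8.7 had a pooled signal of 57.0 (rank 436), with 32.3 in replicate 1 (rank 682) and 21.8 in replicate 2 (rank 660).

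Within the family, copies with the same transcribed sequence differed in whether they had a peak. Of the 14 genes with the transcribed sequence of R07E5.16, 3 had an IDR peak and 9 had no peak in either replicate. All 3 were among the 5 copies on chromosome III, and the 8 copies on chromosome IV and the single copy on chromosome V had none. Over all annotated genes, 2.85% had an IDR peak on chromosome III, 0.462% on IV and 1.18% on V. With such shares few or none of the copies on IV and V would be called, so nothing is read from their zeros. F54D8.7 shared its sequence with 2 further genes, both on chromosome IV, and was the single gene of these 3 with a pooled peak. Over the whole family, pooled peaks were found at the single gene on chromosome I, at 4 of 7 genes on chromosome III, at 0 of 13 on chromosome IV and 0 of 2 on chromosome V. The pooled share of all annotated genes was not counted by chromosome here, so no difference between chromosomes is read from these counts. Because the transcribed sequences of all 14 copies hold no unique 50-base word, a read of that length from within them has no unique place. Counting the gene and 250 bp on each side, 89.5% of words were unique at W05B2.8, 86.8% at R07E5.16 and 76.5% at C28A5.7, against 56.4% to 87.3% at the 11 copies without an IDR peak. The ranges overlap, and the part of this in the result was not tested. Neither the labels nor the file headers state the read length or how reads with several matches were treated.

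The SL2 family gave the other 4 genes. The gene sls-2.4 (chrI:4172206-4172315) had a pooled signal of 123 (rank 70), with 67.9 in replicate 1 (rank 104) and 58.3 in replicate 2 (rank 40). The gene sls-2.1 had a pooled signal of 92.4 (rank 143), with 58.3 in replicate 1 (rank 143) and 35.6 in replicate 2 (rank 154). The gene sls-2.2 had a pooled signal of 73.3 (rank 251), with 50.3 in replicate 1 (rank 209) and 18.7 in replicate 2 (rank 1248). Both sls-2.4 and sls-2.1 ranked at 154 or better in every list, and sls-2.2 in none. For sls-2.4 and sls-2.1 the share of unique 50-base words in the transcribed sequence was 96.7% and 50.8%.

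The fourth SL2 gene, sls-2.9 (chrI:13297877-13297985), had its IDR peak over another gene. Its pooled signal was 75.3 (rank 238), with 44.0 in replicate 1 (rank 297) and 29.2 in replicate 2 (rank 267). The summit lay 181 bp upstream, inside the tRNA gene M01E5.t1, and the 50 bases around it occurred 23 times in the genome. At the other 6 genes the nearest tRNA or snoRNA gene was at least 2044 bp from the summit. When peaks with a tRNA or snoRNA gene up to 100 bp from their summit were left out, 234 IDR peaks remained, and 6 of the 129 genes (4.65%, 95% Wilson interval 2.15% to 9.78%) had one, against 0.570% of the 45932 annotated genes that are neither tRNA nor snoRNA genes.

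In the pooled list, the other SL2 genes were reached weakly or not at all. In replicate 2, sls-2.18, picked for its value there, had a signal of 20.3 (rank 886), above that of sls-2.2. It had no peak in replicate 1 and a pooled rank of 7804. The strongest pooled peak below the IDR list was at sls-2.8 (chrIII:12250465-12250575), with a pooled signal of 40.7 (rank 1083), 37.8 in replicate 1 (rank 427) and 15.9 in replicate 2 (rank 2709). In the pooled list the family ranged down to 19.1, near the list's lowest signal of 19.0, at sls-2.14 and sls-2.15, which share a single summit. The genes sls-2.6 and sls-2.7 had no peak in any list, although every 50-base word of their transcribed sequence and flanks was unique. The gene sls-2.3, whose summit-bearing neighbour sls-2.2 lies on the opposite strand, had no peak within 250 bp either, and at a distance of 500 bp it took up the IDR peak of sls-2.2, with its summit inside sls-2.2.

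The spliced leader SL1 showed no HLH-15 peak that these lists could place. None of the 12 SL1 genes had a peak in any list. All 12 lacked a unique 50-base word in the transcribed sequence, and over gene and flanks the share of unique words had a median of 0% and a maximum of 31.5%. At these genes a peak was not detectable with uniquely placed reads of 50 bases over most of the region, so the zero does not show that HLH-15 was absent from them.

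The remaining families had weaker peaks. In the 165-base family, 5 of 13 genes had a pooled peak, the strongest at sup-6 (chrII:12944803-12944967), with a pooled signal of 53.0 (rank 508), 32.7 in replicate 1 (rank 655) and 17.8 in replicate 2 (rank 1605). In the 122-base family 7 of 12 genes had one, the strongest at F38E11.10 (chrIV:9444642-9444763), with a pooled signal of 46.1 (rank 715), 28.9 in replicate 1 (rank 1024) and 14.8 in replicate 2 (rank 3724). Both genes had a peak in each replicate but stayed below the IDR list. The 144-base family had 1 of 5 genes with a pooled peak, C52E4.8, at a signal of 35.0 (rank 1935), with 29.9 in replicate 1 and no peak in replicate 2. In the SmY family 3 of 10 genes had one, led by smy-5 at 33.4 (rank 2350), with 18.0 in replicate 1 and 14.1 in replicate 2. The 187-base family had 3 of 19, led by T14B4.10 at 28.1 (rank 4811), with 17.8 in replicate 1 and no peak in replicate 2. Of the 17 genes in no family, C35D6.6 alone had a pooled peak, at 19.1 (rank 17277), with no peak in replicate 1 and 10.3 in replicate 2. For these last 4 leaders the pooled ranks lay far from those of the IDR peaks, whereas in replicate 1 C52E4.8 ranked 915. The transcribed sequences of the SmY genes held 85.7% to 100% unique words.

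By chromosome, IDR peaks stood at 2 of 16 genes on I, 2 of 16 on II and 3 of 13 on III, and at none of 41 on IV, 40 on V and 3 on X. Over all annotated genes of the same chromosomes the shares were 2.74% on I, 1.97% on II, 2.85% on III, 0.462% on IV, 1.18% on V and 2.61% on X. With such shares few or none would be called among 41, 40 or 3 genes, so nothing is read from the zeros. The count on chromosome II includes the overlapping genes sup-39 and mir-1831, a 22-base entry that the annotation also classes as an snRNA, neither of which had an IDR or pooled peak.

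**Figure D2:**
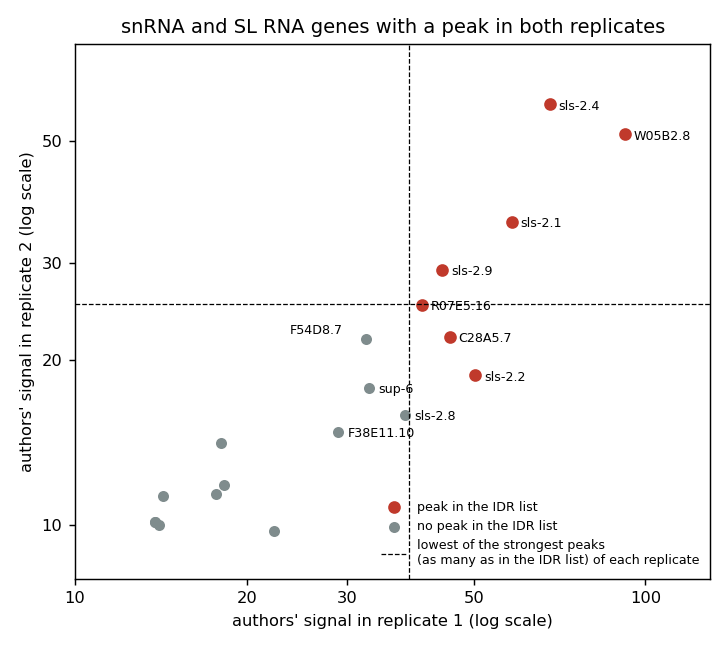
The authors' signal in replicate 1 (x axis) and replicate 2 (y axis), both on log axes, for the 19 genes with a peak within 250 bp in both; dashed lines mark the lowest of the 407 strongest peaks of each replicate. The 7 genes of the IDR list, in red, lie right of the vertical line, and 4 of them lie above the horizontal one.

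The replicates ranked the shared genes alike. Over the 19 genes with a peak in both, Spearman's rho between the signals was 0.91, a description across genes that share chromatin, libraries and, in part, sequence. Among the 12 of these without an IDR peak it was 0.75. Genes with a peak in a single replicate were left out, so part of this likeness is built in by the choice of genes. The overlapping genes T27E4.22 and T27E4.12 entered with the same peaks. At the 7 genes of the IDR list the summits of the replicates lay 4 to 89 bp apart, with a median of 34 bp. Among the other 12 the median was 91.5 bp, the largest 400 bp, and 6 lay within 100 bp of each other, so several of the weaker genes were reached by different peaks in the replicates.

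Summits at the 7 genes had no common position along the gene. Counted along the gene from its first base, they lay at -181 bp at sls-2.9, -46 bp at sls-2.1, 46 bp at C28A5.7, 96 bp at sls-2.2, 103 bp at R07E5.16, 137 bp at W05B2.8 and 140 bp at sls-2.4. Thus 2 were upstream, 2 inside and 3 past the 3′ end, with a median of 96 bp. Apart from that of sls-2.9, in a tRNA gene, the summits lay inside the gene or up to 46 bp from it. The 7 genes are 102 to 110 bases long and their replicate summits lay up to 89 bp apart, so these classes are not sharply separated. In replicate 1, 2 summits of these 7 genes were upstream, 3 inside and 2 past the end, with a median of 92 bp, and in replicate 2 the numbers were 2, 4 and 1, with a median of 77 bp. R07E5.16 had its summit inside the gene in each replicate, at 94 and 98 bp, and sls-2.4 past it in replicate 1, at 111 bp, and inside it in replicate 2, at 77 bp. The median was 29 bp over the genes with one of the 407 strongest peaks of replicate 2, that is without replicate 1, and 137 bp over the stronger part of the IDR list. In replicate 1 sls-2.1 had its summit at -108 bp and in replicate 2 at -19 bp, so it was upstream in each. C28A5.7 had it at 7 bp in replicate 1 and 76 bp in replicate 2, inside the gene in each. At C28A5.7 the 50 bases around the pooled summit occurred 19 times in the genome, whereas at R07E5.16, 2 bp past the gene, and at W05B2.8, 36 bp past it, they occurred once. Over the 34 genes with a pooled peak, at 32 distinct summits, 19 lay upstream, 8 inside and 7 downstream, with a median of -16 bp.

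**Figure D3:**
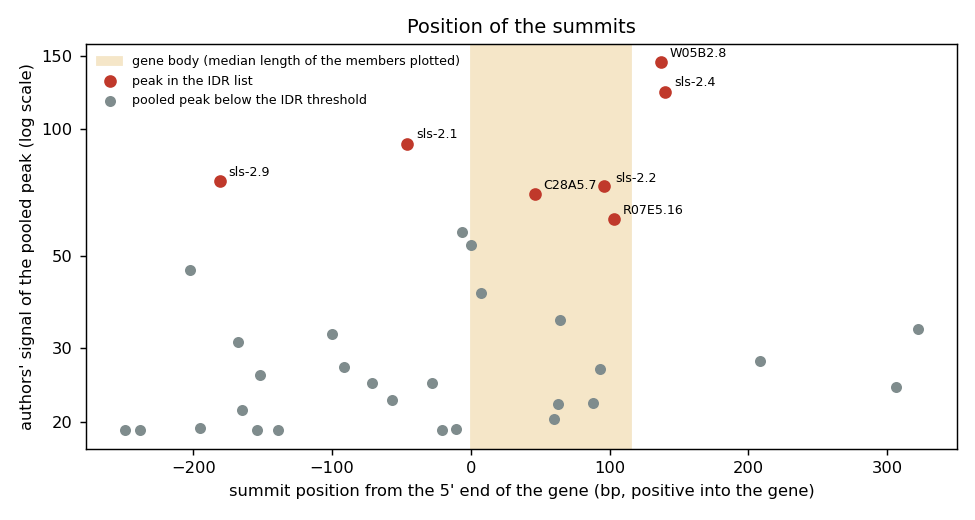
Position of the pooled summit from the 5′ end of the gene (x axis, bp, positive into the gene) and the authors' signal (y axis, log scale) for the 34 genes with a pooled peak; the shaded band is the median gene length. The 7 genes of the IDR list, in red, run from -181 to 140 bp.

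Protein-coding starts lay no nearer to the genes with IDR peaks than to the others. From the 5′ ends of the 7 genes of the IDR list the nearest protein-coding transcription start lay 617 to 2839 bp away, with a median of 1266 bp. Against this, the median was 737 bp at the 27 genes whose pooled peak missed the IDR list and 1206 bp at the 95 genes with no pooled peak. Of the 7 genes, 3 lay inside a protein-coding gene: R07E5.16 in mpc-1, C28A5.7 in C28A5.6 and W05B2.8 in dhc-4. The summit of sls-2.4 lay within 100 bp of R12E2.11, which does not contain it. At such summits a peak of the small gene and a peak of the larger gene cannot be told apart.

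**Figure D4:**
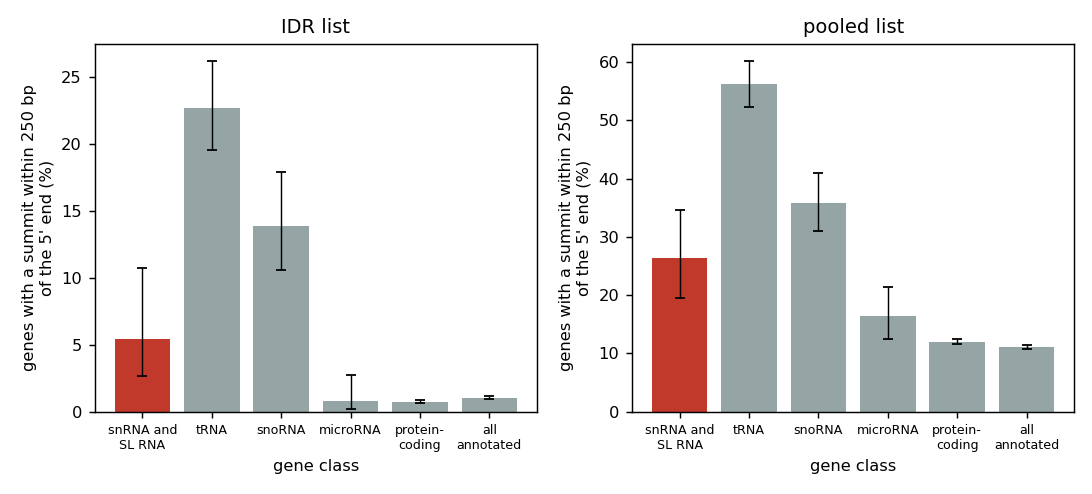
Share of genes with a summit within 250 bp of the 5′ end in the IDR list (left) and the pooled list (right), by gene class, with 95% Wilson intervals for counting error. snRNA and spliced-leader RNA genes are at 5.43% in the IDR list, below tRNA genes at 22.7% and snoRNA genes at 13.9% and above all annotated genes at 1.05%.

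Set beside the other small RNA classes, the set held an intermediate place. Since long genes meet more peaks, the classes were compared by the 5′ end alone. An IDR summit lay within 250 bp of the 5′ end of 5.43% of the 129 genes, against 22.7% of the 612 tRNA genes, 13.9% of the 346 snoRNA genes (Wilson interval 10.6% to 17.9%), 0.766% of the 261 microRNA genes (0.210% to 2.75%), 0.746% of the protein-coding genes and 1.05% of all annotated genes. The interval of the set, 2.65% to 10.8%, reached into that of the snoRNA genes and, at its lower end, into that of the microRNA genes. In the pooled list the set again stood below tRNA and snoRNA genes and above the other classes, with 26.4% of the 129 genes, 56.2% of tRNA genes, 35.8% of snoRNA genes, 16.5% of microRNA genes and 5188 of the 46890 annotated genes. There too the interval of the set, 19.5% to 34.6%, overlapped those of the snoRNA genes (31.0% to 41.0%) and the microRNA genes (12.5% to 21.5%).

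Upstream of the genes, recurring letters were found within 100 bp, of which TCGCTTGC alone was confined to a single family of the set. On both strands together, TATATAA stood upstream of 15 of the 23 genes of the 102-base family, starting 31 or 30 bases before the gene, and of 18 of the 129 genes, against 3.52% of all annotated genes. All 3 genes of this family with an IDR peak were among the 15, as was F54D8.7, and 9 of the 15 had no peak in either replicate. The letters overlap those of TATAAA, found upstream of 16.3% of the set, against 17.5% of all annotated genes. TCGCTTGC stood upstream of 4 SL2 genes, 65 bases before the gene in each, against 0.0874% of all annotated genes. Of these 4, sls-2.1, sls-2.2 and sls-2.4 had an IDR peak and sls-2.3 did not, while of the other 14 SL2 genes sls-2.9 alone had one, over the tRNA gene. GAACCC stood upstream of 35 of the 129 genes (27.1%), against 1.37% of all annotated genes, and of 1 of the 7 genes of the IDR list, W05B2.8. It also stood upstream of 38 of the 346 snoRNA genes, a share above that of all annotated genes, and of 9 of the 612 tRNA genes. GAACCC was thus not particular to the set. These 3 sets of letters were chosen after the upstream sequences and peaks had been seen, so the counts describe the sequences shown above and test nothing.

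E-box letters were counted at these summits. Within 100 bp of the summit, CANNTG on either strand was present at 2 of the 7 IDR peaks, those of sls-2.1 and W05B2.8. Over all 407 IDR peaks the share was 51.6%, and from 7 peaks no difference is read. CAAGTG and CACATG, particular forms of CANNTG, were present at 0 of 7 in each case, against 49 and 47 of all 407. With such shares few or none of 7 would hold them, so nothing is read from these zeros. In the 100 bases upstream of the gene, CANNTG stood at 34.9% of the 129 genes, against 28.6% of all annotated genes. CAAGTG stood there at 1 of the 7 with an IDR peak, sls-2.2, and CACATG at 0, against 3.76% and 2.82% of all annotated genes. A match of letters is a description, and its absence says only that these letters are not in the window.

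The protein genes of the same machinery were counted by peaks within 1 kb of a transcription start. The lists held 96 names, of which 66 were found in the annotation. Of the 30 not found, 19 were Integrator names, entered under 2 naming schemes, and 8 were names for RNA polymerase III and TFIIIB, of which 5 of 13 were found, so that group is largely uncounted. A pooled peak was near 35 of the 66 (53.0%), against 35.7% of all protein-coding genes, peaks of both replicates near 25 (37.9%), against 27.6%, and an IDR peak near 3 (4.55%), against 1.78%. Of the 7 genes of the Sm core, the ring of proteins around most snRNAs, 6 had a pooled peak. For 1 of these, snr-4, it is the same peak as at C52E4.8, with a signal of 35.0 (rank 1935). None of the 9 genes found for SNAPc, the factor that binds snRNA promoters, and TBP had an IDR peak, and 4 had a pooled one. At the 1.78% of all protein-coding genes few or none of 9 would be called, so nothing is read from this zero.

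The 3 genes with an IDR peak were snr-1, lsm-3 and ints-8. The peak 426 bp upstream of snr-1, an Sm protein gene, had a signal of 214 in the pooled list (rank 12), 134 in replicate 1 (rank 13) and 81.2 in replicate 2 (rank 15). It lay nearer to the start of snx-13, at -185 bp. The peak at ints-8, an Integrator subunit, had 165 (rank 26), 95.2 in replicate 1 (rank 38) and 67.1 in replicate 2 (rank 25), and lay 910 bp past its start. The peak 980 bp upstream of lsm-3, of the LSm ring of U6, had 80.2 (rank 209), 35.3 in replicate 1 (rank 532) and 40.3 in replicate 2 (rank 117), and lay 101 bp upstream of Y62E10A.23. At snr-1 and lsm-3 the nearest start was thus that of another gene.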

How the data were processed

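The data were ChIP-seq peak lists of 1 group with 2 biological replicates; the members and gene lists used here were chosen with earlier results of these data known. The authors deposited narrowPeak lists on ce11 (WBcel235): an IDR list, a pooled list of peaks and background, and a list per replicate. Column 7 holds the authors' signal, a peak strength of unstated scale, and column 9 a −log10 q value, which the authors' IDR list gives as 3.00 throughout, so ranks follow the signal. The labels and file headers name no aligner, peak caller or read depth, so depth is unknown, and control libraries were not analysed here. Lists on the older build were not used. Genes came from Ensembl release 115 and symbols from RefSeq, by gene ID (129 of 129 matched). A summit within 250 bp of a gene was assigned to it, the strongest where several were. Named genes were those with an IDR peak, those ranking in the first 1000 of the pooled list, the strongest of each family and the first 2 without a peak in genome order. Python 3.11.15, pandas 2.3.3, SciPy 1.17.1 and Biopython 1.88 were used, and the assignment was checked on simulated data. Alternatives changed the distance, the overlap rule and the lists. The transcribed sequence of the 102-base family is not reported here.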

Additional observations from a re-analysis of the deposited data

How the results depend on the processing

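Of 37 alternative values for the 5 counts and positions, 28 stayed within 1.5 times the count or within the spread of the replicates' median position (SD 10.6 bp, n = 2), and 9 did not. With the summit required inside the gene, the genes with a peak numbered 10 in place of 34 in the pooled list, 2 in place of 7 in the IDR list, 4 in place of 19 in both replicates and 0 in place of 4 among the strongest peaks of both; the windows are then as short as the genes. At 100 bp, 12 genes had a peak in both replicates. The stronger part of the IDR list (204 peaks) reached 3 genes, with a median position of 137 bp, and holds fewer peaks by construction. Leaving out a replicate gave 4 to 7 genes and a median position of 29 to 92 bp, the lower value of each being without replicate 1; the cause was not tested. At 500 bp the IDR count was 8, with sls-2.3 added through the peak of sls-2.2, and without peaks at tRNA or snoRNA genes it was 6. No paired analysis was possible because the series has 1 group. Unknown depth and repeated sequence limit what the lists can show at the SL1 genes and at the copies of the 102-base family.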
